A study of Mus musculus with 19 samples.

Results

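The heat shock proteins and chaperones examined here are the genes whose symbols name an HSP70 or HSP110 protein, an HSP90, a small heat shock protein, the mitochondrial chaperonin pair, a subunit of the cytosolic chaperonin TRiC or a J-domain (DNAJ) protein. They were taken by symbol alone, and 81 symbols of 19486 matched. A member had to reach a value of at least 1 in at least 3 of the 19 libraries, which 69 did, out of 13253 genes that passed the same filter. These 69 comprised 11 HSP70 or HSP110 genes, 3 HSP90 genes, 5 HSPB genes, the pair Hspd1 and Hspe1, 8 TRiC genes and 40 DNAJ genes. The 12 symbols below the filter included Hspa1a, whose highest value was 3.88, and Hspa12b, whose highest was 2.01. The other 10 stayed below 1 in every library. Dnaja4, just inside the filter, reached 1 in 3 libraries.

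RNA was sequenced from 19 mouse liver tumors, all labelled hepatocellular carcinoma (HCC), in 5 groups: MYC_HCC and MYC_Twist1_HCC with 5 libraries each, and MYC_OFF, MYC_Twist1_OFF and MYC_Recur with 3 each. The series title sets the samples in the study of tumor evolution in metastatic and non-metastatic liver cancer driven by MYC. The names carry MYC in every group and Twist1, a transcription factor gene, in 2, and the labels give no transgene promoter, strain, animal age, treatment or time for OFF or Recur. The 10 HCC libraries come from an earlier deposit and the OFF and Recur libraries from a later one, so group and deposit cannot be told apart where an HCC group is compared with an OFF or Recur group. Recur against OFF, and the comparisons of Twist1-labelled with other groups, lie within 1 deposit. Nothing in the labels ties the samples of a group to different animals, and p-values reflect the spread of these samples alone.

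Molecular chaperones bind unfolded or partly folded proteins and keep them from aggregating. HSP70 proteins work in cycles of ATP hydrolysis that J-domain proteins start and nucleotide exchange factors such as the HSP110 proteins end, and HSP90 takes over clients at a later stage, among them kinases and steroid receptors. TRiC is a double ring that encloses actin, tubulin and other cytosolic proteins while they fold, and Hspd1 with its lid Hspe1 does this in the mitochondrial matrix. Heat shock factor 1 (Hsf1) induces some of these genes when unfolded protein builds up, while others are expressed at a steady level in growing cells, and the liver, which secretes most plasma proteins, relies heavily on the chaperones of the endoplasmic reticulum.

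Deposited values are normalized per library by the authors on a scale whose formula is not given, so levels were compared between groups and not between genes, and they summed to between 507868 and 690310 per library. Myc stood at 158, 180.5, 165, 129 and 166 in MYC_HCC, 116, 120.0, 134, 153 and 102 in MYC_Twist1_HCC and 159, 156 and 152 in MYC_Recur, against 59.8, 33.9 and 43.4 in MYC_OFF and 32.5, 40.9 and 45.7 in MYC_Twist1_OFF, so both OFF groups lay below all other libraries (log2 fold change -1.81, SE 0.20, adjusted p = 7.25e-07 in MYC_OFF against MYC_HCC). Twist1 was at or below 0.27 in every library and at or below 0.12 in the Twist1-labelled ones, so the labelled Twist1 difference was not visible and directions between those groups rest on the labels. The summed level of 8 hepatocyte markers was 6645 to 13050 in MYC_HCC, between 3668 and 5915 in MYC_Twist1_HCC and between 5223 and 7122 in MYC_Recur, but between 1253 and 2075 in MYC_OFF and between 1341 and 1461 in MYC_Twist1_OFF, with none of the 8 at 0 throughout a group. The summed level of 5 endothelial markers was 10.9 to 79.5 in MYC_HCC, between 8.89 and 20.4 in MYC_Twist1_HCC and between 4.24 and 10 in MYC_Recur, and 29.0 to 83.9 in MYC_OFF and between 63.6 and 109.6 in MYC_Twist1_OFF. Pecam1 made up most of the OFF sums, with a highest value of 81.6 in MYC_OFF and 106.5 in MYC_Twist1_OFF against 28.2 in MYC_HCC, while Cdh5 reached 39.3 in MYC_HCC and 3.81 in MYC_OFF. Of the 4 endothelial markers tested, 1 was called higher and 2 lower in MYC_OFF against MYC_HCC. Of 3 T and NK cell markers tested, 2 were called higher and 0 lower in that comparison. The sum of all 6 such markers was 1.96 to 3.07 in MYC_HCC and 4.31 to 18.06 in MYC_OFF. Of 4 macrophage markers tested, 1 was called higher and 0 lower, with overlapping sums. The part these shifts had in the chaperone differences was not tested, and in bulk tissue fewer cells of a type and less RNA per cell cannot be told apart. MYC_HCC 4 stood apart from its group, with the highest hepatocyte and endothelial sums, and it was the lowest of the 5 in 27 members and the highest in 22.

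In both OFF groups more chaperone genes were called lower than higher, as was so among all genes. A difference is called here at an adjusted p under 0.05 by limma, fitted over all 13253 genes on log2(value + 1) with Benjamini-Hochberg adjustment, and fold changes are on that scale, which understates changes of low genes. In MYC_OFF against MYC_HCC, 32 of 69 members were called lower and 12 higher, where 39.4% and 18.9% of all genes were. The members' share called lower was 46.4%, and their median log2 fold change was -0.74, against -0.38 over all genes. In MYC_Twist1_OFF against MYC_Twist1_HCC, 30 members were lower and 5 higher, where 33.5% and 13.1% of all genes were, with a median of -0.52 against -0.32. These 2 comparisons share no library, but both come from 1 fit with a shared estimate of the spread. Both also set the later deposit against the earlier one, so their agreement is not that of independent tests. The 2 comparisons called the same direction for 27 lower members and 5 higher ones, gave opposite calls for 0, and left 22 uncalled in both. The share of all genes with the same call in both is not given here. The 5 called higher in both were Hsp90aa1, Dnajc21, Dnajb13, Hspa2 and Hspa12a. Without regard to the call, all MYC_OFF libraries lay below all MYC_HCC libraries in 32 members and above them in 8, where 34.4% and 15.7% of all genes did. For MYC_Twist1_OFF against MYC_Twist1_HCC these counts were 32 and 5, where 37.1% and 13.4% of all genes did. The MYC_Recur libraries lay wholly above MYC_OFF in 34 members and wholly below in 5, where 41.2% and 12.2% of all genes did.

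The OFF libraries lay lower in the median over all genes, and the number of members called depended on the scaling. Scaling by median of ratios moved the median over all genes from -0.38 to 0.06 in MYC_OFF against MYC_HCC and from -0.32 to 0.01 in the Twist1-labelled pair, and then 21 members were lower and 17 higher in the first, where 26.7% and 28.9% of all genes were. In the second, 19 were lower and 12 higher, where 20.9% and 21.6% of all genes were. The members' medians under this scaling were -0.22 and -0.10. Of the called members, 21 of the 32 lower and 6 of the 12 higher in MYC_OFF kept their call under every alternative in which they were tested, each single library left out included. In the Twist1-labelled pair these were 19 of 30 and 2 of 5. The OFF calls of members given below with no remark on scaling or on a left-out library are among these; genes outside the member list were not followed singly under the alternatives. Of the 5 higher in both comparisons, Dnajb13, a protein of the sperm axoneme, was lost in MYC_OFF without MYC_HCC 3 (0.96) or MYC_OFF 2 (0.57), and in MYC_Twist1_OFF without MYC_Twist1_HCC 3, MYC_Twist1_HCC 4, MYC_Twist1_OFF 2 or MYC_Twist1_OFF 3 (0.96, 0.96, 0.78 and 0.99).

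**Figure D1:**
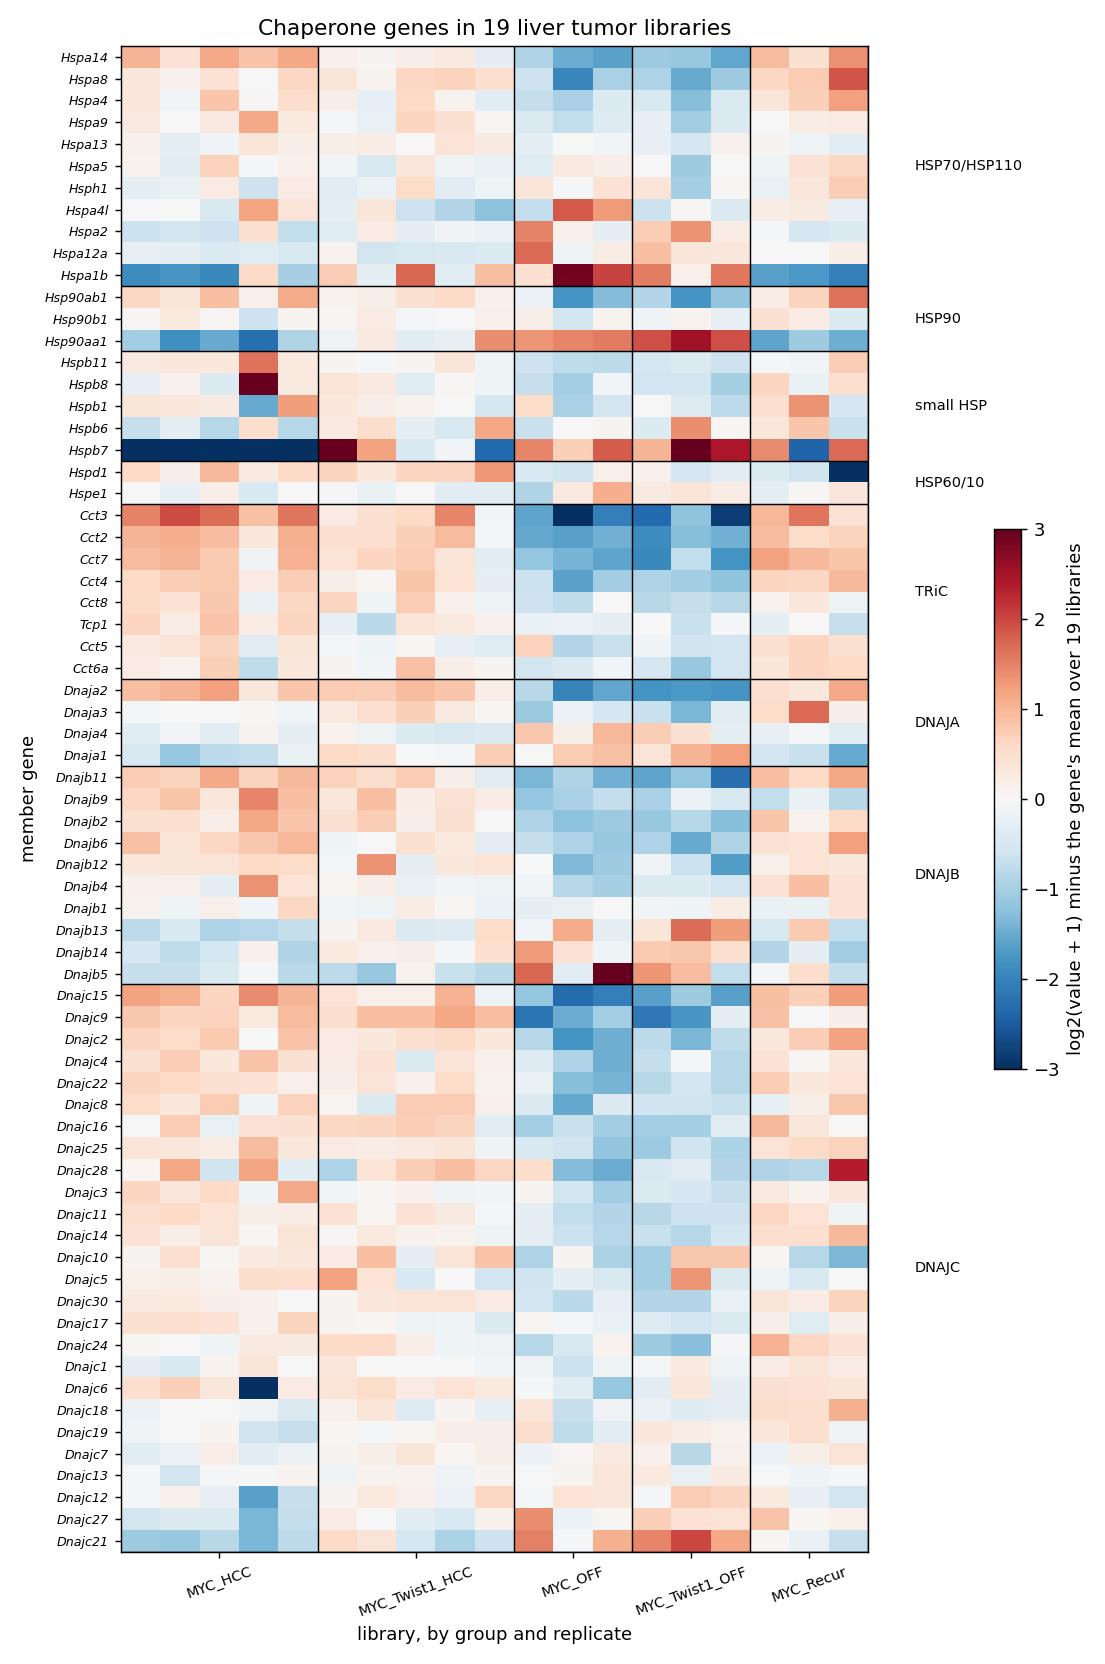
Each row is 1 of the 69 chaperone genes and each column 1 library, grouped by label; color gives log2(value + 1) minus the mean of that gene over the 19 libraries, and stops at 3 in either direction, a limit that Hspb7 and a few other cells pass. The 3 MYC_OFF and 3 MYC_Twist1_OFF columns are blue for Cct3, Cct2 and Dnaja2 and red for Hsp90aa1.

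MYC_Recur against MYC_OFF gave 32 members higher and 7 lower, where 37.5% and 12.0% of all genes were called, with a median of 0.79 against 0.45. This comparison uses the same MYC_OFF libraries as the first, so the 2 are not independent. Under median of ratios the median over all genes was -0.07 and 19 members were higher and 13 lower, where 20.8% and 22.5% of all genes were. Against MYC_HCC, MYC_Recur differed in 4 of 69 members: Dnajc18 and Dnajc27 were called higher, where 6.90% of all genes were, and Hspd1 and Dnajb9 lower, where 3.93% were. MYC_Twist1_HCC against MYC_HCC gave 3 higher (Hspb7, Hsp90aa1 and Dnaja1) and 2 lower (Hspa14 and Dnajc17), where 3.20% and 3.23% of all genes were called.

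MYC_Twist1_OFF against MYC_OFF gave 0 of 69 members by limma, with 1 member at an unadjusted p under 0.05, where 0.00% of all genes were called higher and 0.00755% lower. The interaction, which asks whether MYC_Twist1_OFF differed from its HCC group by another amount than MYC_OFF from its own, also called 0 members by limma, with 5 at an unadjusted p under 0.05, where 0.0226% of all genes were called higher and 0.0755% lower. Its largest member values were Hspa1b (log2 difference -2.45, SE 0.86, adjusted p = 0.537), Hspb7 (-1.90, SE 1.63, adjusted p = 0.776) and Cct3 (1.17, SE 0.60, adjusted p = 0.654). None of the differences between the OFF comparisons described below passed this test.

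**Figure D2:**
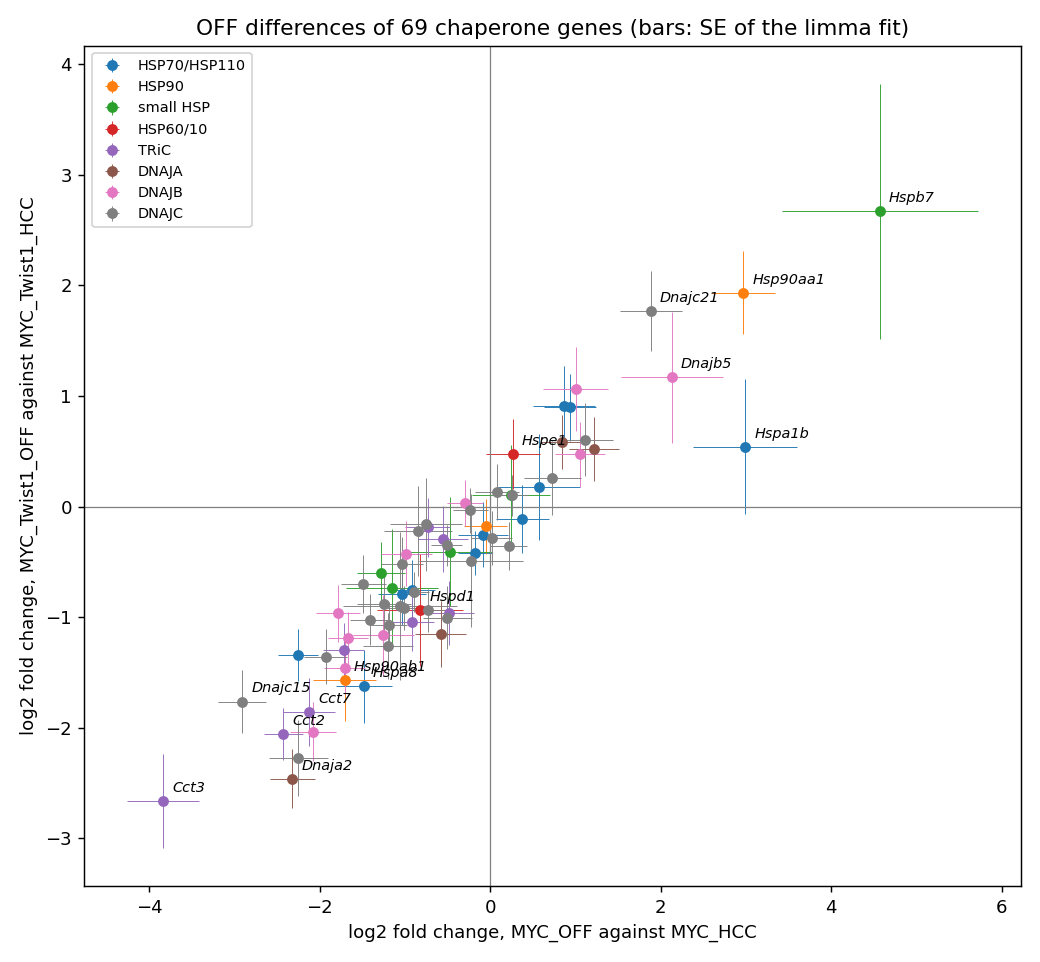
Each point is a chaperone gene, with its log2 fold change in MYC_OFF against MYC_HCC on the horizontal axis and in MYC_Twist1_OFF against MYC_Twist1_HCC on the vertical axis, colored by family; bars are standard errors of the limma fit. Cct3 lies at -3.84 and -2.66, Hsp90aa1 at 2.97 and 1.93, and Hspa1b at 2.99 and 0.54.

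In TRiC, 6 of 8 subunits were lower in MYC_OFF than in MYC_HCC, 6 of 8 lower in MYC_Twist1_OFF than in MYC_Twist1_HCC, and 5 of 8 higher in MYC_Recur than in MYC_OFF, with 0 in the opposite direction in each. Over all genes, 39.4% and 33.5% were called lower and 37.5% higher in these comparisons. The family medians were -1.32, -1.17 and 1.37, against -0.38, -0.32 and 0.45 over all genes. Under median of ratios 4 of 8 were called in each comparison, with medians of -0.76, -0.72 and 0.70. Under that scaling 26.7% and 20.9% of all genes were called lower and 20.8% higher. The 8 subunits stand once in each ring of the assembled complex, yet their transcripts moved by different amounts.

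Cct3 (chromosome 3, 88297116 to 88321767), the gamma subunit, had the largest fall of any member. Its values were 303, 419, 341, 196 and 327 in MYC_HCC and 127, 147, 163, 295 and 100.3 in MYC_Twist1_HCC. They were 34.8, 9.93 and 25.0 in MYC_OFF and 20.3, 45.6 and 14.2 in MYC_Twist1_OFF, and 212, 325 and 145 in MYC_Recur. All 6 OFF libraries lay below 46 and all others above 100.2, with no overlap. The differences were -3.84 in MYC_OFF (SE 0.42, adjusted p = 9.3e-07), -2.66 in MYC_Twist1_OFF (SE 0.42, adjusted p = 8.1e-05) and 3.32 in MYC_Recur against MYC_OFF (SE 0.47, adjusted p = 2.23e-05). In MYC_Recur against MYC_HCC no difference was called (-0.51, SE 0.42, adjusted p = 0.492).

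Cct2 (chromosome 10, 117051001 to 117063814), the beta subunit, was at 334, 351, 312, 206 and 345 in MYC_HCC and 229, 232, 271, 319 and 157 in MYC_Twist1_HCC. It was at 55.9, 52.0 and 59.8 in MYC_OFF, 43.1, 67.3 and 59.7 in MYC_Twist1_OFF and 311, 239 and 260.2 in MYC_Recur, again with every OFF library below every other. The log2 fold changes were -2.42 (SE 0.23, adjusted p = 2.61e-07) in MYC_OFF, -2.06 (SE 0.23, adjusted p = 3.74e-06) in MYC_Twist1_OFF and 2.24 (SE 0.26, adjusted p = 3.76e-06) in MYC_Recur against MYC_OFF. Cct7 (chromosome 6, 85451514 to 85468475), the eta subunit, was at 229, 240.1, 206, 110.5 and 247 in MYC_HCC and 158, 185, 199.7, 156 and 94.5 in MYC_Twist1_HCC, against 52.6, 44.4 and 38.7 in MYC_OFF, 30.3, 71.1 and 33.5 in MYC_Twist1_OFF and 274, 235 and 213 in MYC_Recur. It fell by 2.12 and 1.86 on the log2 scale in the OFF groups (adjusted p = 1.44e-05 and 0.000108) and was higher by 2.39 in MYC_Recur than in MYC_OFF (adjusted p = 2.29e-05). Cct4 (chromosome 11, 22990519 to 23003780), the delta subunit, was at 169.6, 187, 196, 133 and 188 in MYC_HCC, 127, 117, 200.04, 149 and 92.1 in MYC_Twist1_HCC, 71.2, 36.2 and 54.2 in MYC_OFF, 58.5, 53.7 and 48.3 in MYC_Twist1_OFF and 176, 174 and 221 in MYC_Recur. Its OFF libraries also lay below all others, and the log2 fold changes were -1.72, -1.30 and 1.84 (adjusted p = 1.12e-05, 0.000336 and 2.91e-05). These 4 subunits kept their 3 calls under every alternative.

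The other 4 subunits moved less. Cct5, the epsilon subunit, was at 508, 545, 669.9, 331 and 538 in MYC_HCC, 407, 380.4, 439.5, 352 and 326 in MYC_Twist1_HCC, 679, 227 and 263 in MYC_OFF, 385, 275 and 279 in MYC_Twist1_OFF and 573, 659 and 571 in MYC_Recur. MYC_OFF 1 held the highest value of all 19 libraries, the groups overlapped, and Cct5 was called in none of the comparisons (adjusted p = 0.116, 0.438 and 0.0528 in the same order). Cct5 over Cct3 was 1.30 to 1.96 in MYC_HCC and 6.02 to 22.9 in the 6 OFF libraries. It was 1.19 to 3.25 in MYC_Twist1_HCC and 2.025 to 3.94 in MYC_Recur. This ratio was chosen after its values were seen and is given as a description. Tcp1, the alpha subunit, was at 339, 251, 392, 254 and 337 in MYC_HCC, 181, 123, 284, 267 and 235 in MYC_Twist1_HCC, 185, 192 and 181 in MYC_OFF, 217, 136 and 208 in MYC_Twist1_OFF and 178, 218 and 134 in MYC_Recur. Tcp1 was lower in MYC_OFF against MYC_HCC with no overlap (log2 fold change -0.73, SE 0.27, adjusted p = 0.0245), but the call was lost without MYC_HCC 3, MYC_OFF 1, MYC_OFF 2 or MYC_OFF 3 (log2 fold change -0.65, -0.73, -0.76 and -0.72) and under 3 scalings. The 3 MYC_Recur values lay below all 5 of MYC_HCC, a difference that missed the threshold, at -0.83 (SE 0.27, adjusted p = 0.0519).

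Cct8, the theta subunit, was at 315, 285, 370.0, 184 and 325 in MYC_HCC, 330.1, 191, 354, 233 and 190.5 in MYC_Twist1_HCC, 137, 124 and 208 in MYC_OFF, 118, 128 and 119 in MYC_Twist1_OFF and 225, 262 and 188 in MYC_Recur. It was lower in both OFF groups (-0.92 and -1.04, adjusted p = 0.00619 and 0.00364), with overlap in the first through MYC_HCC 4 and MYC_OFF 3, and both calls were lost under median of ratios and upper quartile scaling. Cct6a, the zeta subunit, was at 418, 377, 578, 207 and 437 in MYC_HCC, 375, 332, 646, 398 and 373 in MYC_Twist1_HCC, 240.0, 260.1 and 331 in MYC_OFF, 247, 160.1 and 237 in MYC_Twist1_OFF and 451, 556 and 533 in MYC_Recur. It was called lower in MYC_Twist1_OFF (-0.96, SE 0.29, adjusted p = 0.0109) and higher in MYC_Recur against MYC_OFF (0.90, SE 0.32, adjusted p = 0.0274), and 3 scalings ended each call. The first was lost without MYC_Twist1_OFF 2 (log2 fold change -0.77), and the second without MYC_OFF 1, MYC_OFF 2, MYC_Recur 2 or MYC_Recur 3 (0.80, 0.86, 0.84 and 0.87). Exons of Tcp1, Cct6a, Cct7 and Cct8 overlap those of other coding genes, by 571 and 141 bases for Tcp1 with Acat3 and Mrpl18, and their levels are uncertain to that extent because use of strand in counting is not given. The same holds for 21 members in all. Among them are Dnaja1 (608 bases with Smu1), Dnajb13 (305 of 2732 with Ucp2), Dnaja4 (1581 of 3589 with Wdr61), Dnajc17 and Hspa12a.

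**Figure D3:**
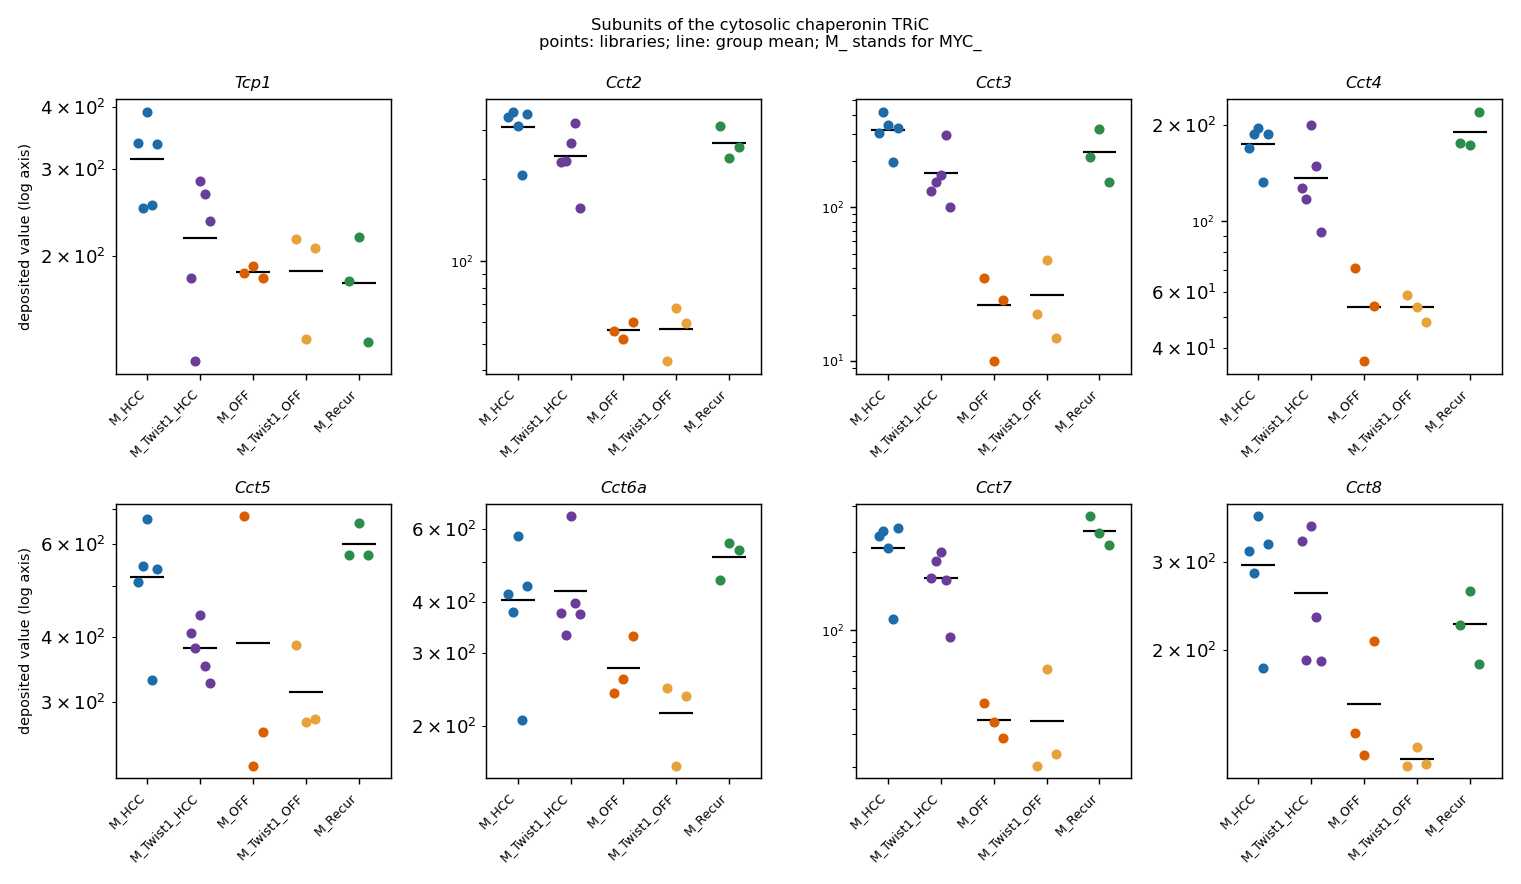
Each panel shows 1 TRiC subunit gene, with the deposited value on a log axis and the 5 groups along the bottom; points are libraries and the line is the group mean. For Cct2, Cct3, Cct4 and Cct7 the 6 OFF points lie below all others, while the Cct5 points overlap between groups.

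The HSP90 genes of the cytosol went opposite ways in the OFF groups. Hsp90aa1 (chromosome 12, 110690605 to 110702728), the stress-inducible isoform, was at 956, 553, 691, 414 and 1058 in MYC_HCC and 1796, 2399, 1573, 1680.3 and 5250.0 in MYC_Twist1_HCC. It was at 4992, 5510.2 and 5842 in MYC_OFF, 7580.2, 11324 and 7545 in MYC_Twist1_OFF and 658, 947 and 717 in MYC_Recur. Every MYC_OFF and MYC_Twist1_OFF library lay above every MYC_HCC and MYC_Recur library, and only MYC_Twist1_HCC 5 came into the range of MYC_OFF. Hsp90aa1 was higher in MYC_OFF (log2 fold change 2.97, SE 0.38, adjusted p = 3.45e-06), in MYC_Twist1_OFF (1.93, SE 0.38, adjusted p = 0.000461) and in MYC_Twist1_HCC against MYC_HCC (1.71, SE 0.32, adjusted p = 0.00542), and lower in MYC_Recur against MYC_OFF (-2.83, SE 0.42, adjusted p = 3.12e-05). Those 4 calls held under every alternative. The 3 MYC_Twist1_OFF values were above all 3 of MYC_OFF, with a difference that was not called (0.67, SE 0.42, adjusted p = 1).

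Hsp90ab1 (chromosome 17, 45567775 to 45573271), the isoform expressed at a steady level, was at 2059, 1731, 2511, 1488 and 2896 in MYC_HCC and 1453, 1515, 1857, 2016 and 1479 in MYC_Twist1_HCC. It was at 1193, 392 and 546 in MYC_OFF, 731, 396 and 589 in MYC_Twist1_OFF and 1573, 2131 and 4168 in MYC_Recur. The OFF libraries lay below all the others, and the log2 fold changes were -1.71 (SE 0.36, adjusted p = 0.000665) in MYC_OFF, -1.57 (SE 0.36, adjusted p = 0.002) in MYC_Twist1_OFF and 1.92 (SE 0.41, adjusted p = 0.000837) in MYC_Recur against MYC_OFF. The ratio of Hsp90aa1 to Hsp90ab1 values, given as a description because it was chosen after the values were seen, was 0.275 to 0.464 in MYC_HCC and 0.172 to 0.444 in MYC_Recur. It was 0.833 to 3.55 in MYC_Twist1_HCC, between 4.19 and 14.0 in MYC_OFF and between 10.4 and 28.6 in MYC_Twist1_OFF. Hsp90b1 (GRP94), the HSP90 of the endoplasmic reticulum, was at 764, 927, 775, 487 and 793 in MYC_HCC, 785, 897, 729, 741 and 834 in MYC_Twist1_HCC, 845, 515 and 810.3 in MYC_OFF, 684, 802 and 632 in MYC_Twist1_OFF and 1036, 895 and 565 in MYC_Recur. Its groups overlapped in all comparisons and it was called in none (-0.05, SE 0.25, adjusted p = 0.866 in MYC_OFF).

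Among the 11 HSP70 and HSP110 genes, 4 were lower and 3 higher in MYC_OFF, where 39.4% and 18.9% of all genes were. In MYC_Twist1_OFF 4 were lower and 2 higher, where 33.5% and 13.1% of all genes were. The family median changed sign under median of ratios: it was 0.48 in place of -0.09 in MYC_OFF, and 0.19 in place of -0.26 in MYC_Twist1_OFF. Hspa8 (chromosome 9, 40800984 to 40810087), the constitutive HSP70 of the cytosol (HSC70), was at 2912, 2580.1, 3182, 2359.5 and 3599 in MYC_HCC and 3027, 2526, 3602, 3712 and 3343 in MYC_Twist1_HCC. It was at 1527, 605 and 1202 in MYC_OFF, 1238, 820.2 and 1111 in MYC_Twist1_OFF and 3615, 3996 and 8748 in MYC_Recur. The OFF libraries lay below all others and MYC_Recur 3 above all others, and the log2 fold changes were -1.48 (SE 0.33, adjusted p = 0.000936), -1.62 (SE 0.33, adjusted p = 0.000678) and, for MYC_Recur against MYC_OFF, 2.28 (SE 0.37, adjusted p = 7.04e-05).

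Hspa14 (chromosome 2, 3488850 to 3512814), which with the J protein Dnajc2 forms the ribosome-associated complex that meets nascent chains, was at 38.0, 25.0, 41.0, 34.0 and 41.9 in MYC_HCC and 20.1, 19.3, 21.3, 22.1 and 14.9 in MYC_Twist1_HCC. It was at 9.23, 5.84 and 5.37 in MYC_OFF, 8.07, 7.74 and 5.50 in MYC_Twist1_OFF and 36.1, 25.6 and 48.4 in MYC_Recur. The MYC_Twist1_HCC libraries lay below all MYC_HCC libraries and above all OFF libraries. Hspa14 was lower in MYC_OFF (-2.25, SE 0.23, adjusted p = 5.32e-07) and MYC_Twist1_OFF (-1.34, SE 0.23, adjusted p = 0.000186), and higher in MYC_Recur against MYC_OFF (2.26, SE 0.26, adjusted p = 3.79e-06). The call in MYC_Twist1_HCC against MYC_HCC (-0.84, SE 0.20, adjusted p = 0.0212) was lost without MYC_HCC 5 (-0.78) or MYC_Twist1_HCC 5 (-0.75). Hspa14 shares 321 exonic bases with the gene model Gm45902. Dnajc2, its partner, fell in the same comparisons (-1.93 and -1.36, adjusted p = 4.43e-06 and 0.000287) and was higher in MYC_Recur than in MYC_OFF by 2.12 (adjusted p = 1.07e-05). Its values ran from 18.4 to 38.5 in the 6 OFF libraries and from 66.4 to 155 in all others.

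Hspa1b (chromosome 17, 34956436 to 34959238), the heat-inducible HSP70, was at low levels. It stood at 0.53, 0.68, 0.49, 7.49 and 1.84 in MYC_HCC, 8.41, 3.64, 17.7, 3.54 and 9.64 in MYC_Twist1_HCC, 6.85, 40.9 and 22.1 in MYC_OFF, 15.4, 5.28 and 16.1 in MYC_Twist1_OFF and 0.83, 0.72 and 0.38 in MYC_Recur. MYC_OFF overlapped MYC_HCC through MYC_HCC 4, and all MYC_Recur libraries lay below all OFF libraries. Hspa1b was higher in MYC_OFF against MYC_HCC (log2 fold change 2.99, SE 0.61, adjusted p = 0.000442), fell in MYC_Recur against MYC_OFF (-3.59, SE 0.68, adjusted p = 0.000316) and was not called in MYC_Twist1_OFF against MYC_Twist1_HCC (0.54, SE 0.61, adjusted p = 0.488). Hspa1a, its near-identical copy, was at 0.40, 0.03, 0.23, 3.88 and 1.14 in MYC_HCC, 0.28, 0.07, 0.10, 0.03 and 0.34 in MYC_Twist1_HCC, 0.77, 0.32 and 0.89 in MYC_OFF, 0.73, 0.17 and 0.14 in MYC_Twist1_OFF and 0.04, 0.07 and 0.29 in MYC_Recur. The split of reads between the 2 copies is uncertain, and for Hspd1, Hspe1, Hspa9, Tcp1, Cct3 and Dnaja1 it is so between the gene and annotated pseudogene copies.

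Organelle HSP70 genes differed less. Hspa5 (BiP), of the endoplasmic reticulum, was at 523, 394, 791, 471 and 547 in MYC_HCC, 465, 356, 619, 455 and 420.2 in MYC_Twist1_HCC, 378, 592 and 560.5 in MYC_OFF, 491, 233 and 486 in MYC_Twist1_OFF and 449.8, 659.7 and 757 in MYC_Recur. The groups overlapped and Hspa5 was called in no comparison (-0.09, SE 0.29, adjusted p = 0.818 in MYC_OFF). Hspa9 (mortalin), of the mitochondrial matrix, was at 625, 512, 628, 1133 and 634 in MYC_HCC, 509, 444, 808, 709 and 532 in MYC_Twist1_HCC, 381, 310.0 and 393 in MYC_OFF, 433, 249.5 and 387 in MYC_Twist1_OFF and 515, 603 and 616 in MYC_Recur. It was lower in MYC_OFF (-0.92, SE 0.27, adjusted p = 0.00707) and MYC_Twist1_OFF (-0.75, SE 0.27, adjusted p = 0.0282) with no overlap, and 3 scalings ended both calls. The second was also lost without MYC_Twist1_HCC 3, MYC_Twist1_HCC 4 or MYC_Twist1_OFF 2 (-0.64, -0.69 and -0.52).

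Of the nucleotide exchange factors, Hspa4 was lower in MYC_OFF (-1.03, adjusted p = 0.00409) and MYC_Twist1_OFF (-0.79, adjusted p = 0.0268) and higher in MYC_Recur against MYC_OFF (1.48, adjusted p = 0.000781). Median of ratios ended all 3 calls, and the second was lost without MYC_Twist1_HCC 3 (-0.66) or MYC_Twist1_OFF 2 (-0.52). Hsph1 (HSP105), which heat also induces, was at 69.5, 73.8, 102, 54.8 and 101 in MYC_HCC, 67.4, 75.0, 125, 68.2 and 77.6 in MYC_Twist1_HCC, 111, 81.8 and 115 in MYC_OFF, 111, 42.3 and 87.3 in MYC_Twist1_OFF and 72.2, 107 and 143 in MYC_Recur. Its groups overlapped and no difference was called (0.38, SE 0.31, adjusted p = 0.307 in MYC_OFF). Hspa12a, a distant relative of HSP70, was at 0.86, 0.83, 0.65, 0.72 and 0.59 in MYC_HCC, 1.39, 0.51, 0.57, 0.61 and 0.62 in MYC_Twist1_HCC, 6.12, 0.97 and 1.59 in MYC_OFF, 3.12, 1.82 and 1.79 in MYC_Twist1_OFF and 1.22, 1.20 and 1.54 in MYC_Recur. It was called higher in both OFF groups (0.94 and 0.90, adjusted p = 0.0142 and 0.0237), and each call was lost without replicate 1 of that OFF group (0.39 and 0.71). Hspa2 was called higher by 0.87 and 0.91 (adjusted p = 0.0472 and 0.0478) at values up to 7.28. The first call held only without MYC_HCC 4, MYC_Twist1_HCC 2, MYC_OFF 3, MYC_Twist1_OFF 2 or MYC_Twist1_OFF 3, and was lost without any other single library (0.35 to 1.02). The second held only without MYC_HCC 4, MYC_Twist1_HCC 2, MYC_OFF 1, MYC_OFF 3 or MYC_Twist1_OFF 3, and was lost without any other (0.62 to 0.92).

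**Figure D4:**
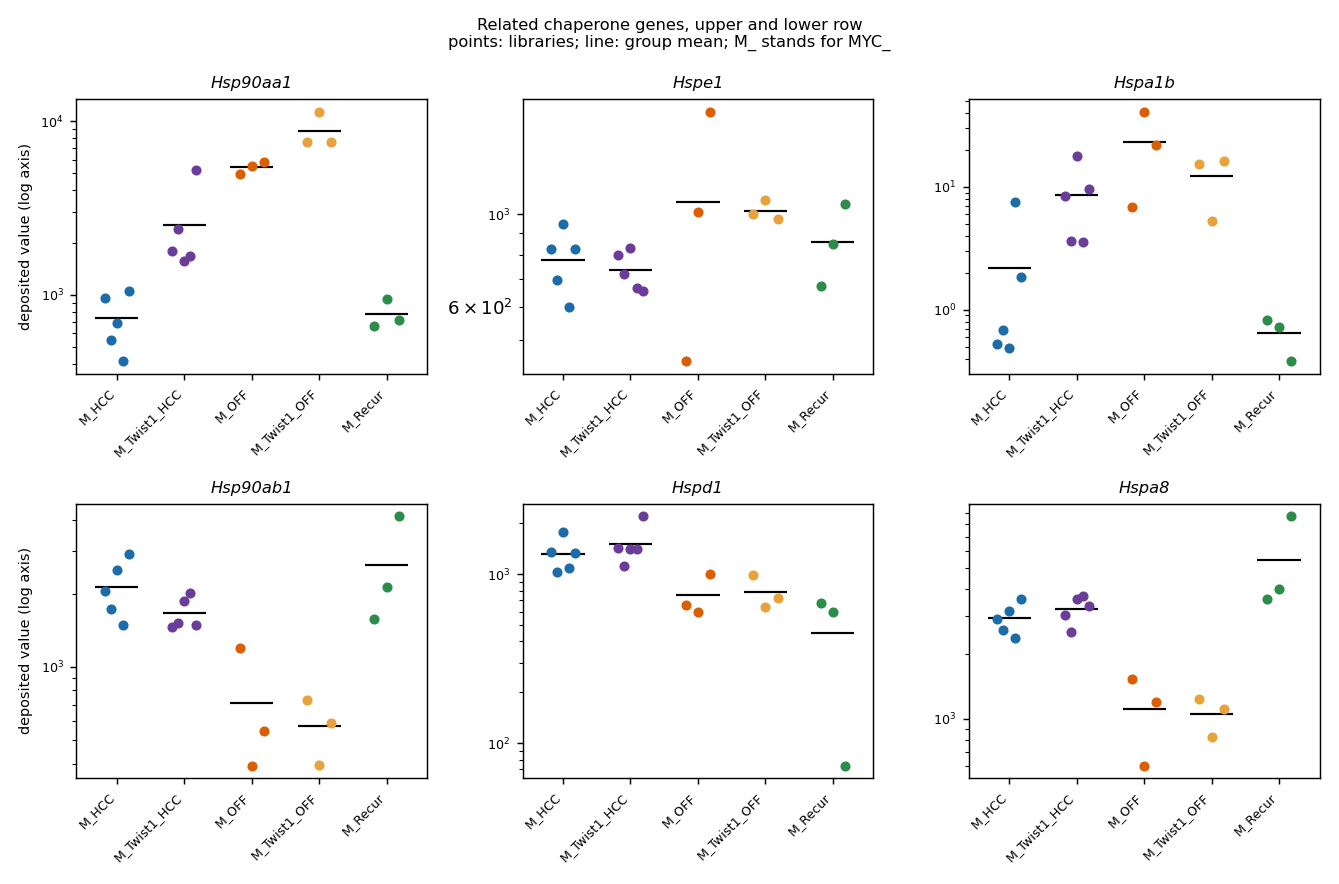
Panels show related chaperone genes, 1 above the other, with the deposited value on a log axis and the 5 groups along the bottom; points are libraries and lines are group means. Hsp90aa1 is high and Hsp90ab1 low in the 6 OFF libraries, and MYC_Recur 3 has the lowest Hspd1 value, 73.6.

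The mitochondrial chaperonin genes Hspd1 (HSP60, chromosome 1, 55077835 to 55088243, minus strand) and Hspe1 (HSP10, chromosome 1, 55088132 to 55091307, plus strand) stand head to head, and their annotated exons overlap by 112 bases. The RefSeq promoter window of Hspe1, 250 bases before to 50 after its start, shares 285 bases with the window of an Hspd1 transcript on the other strand. It is shown because most of it lies before the start of Hspe1 and before the start of that Hspd1 transcript, 55087932. It also lies within the annotated Hspd1 gene, and the levels of the 2 genes parted in some groups. The window is chr1:55087898-55088197 on the plus strand of GRCm38.p6, and capitals mark matches to a heat shock element core, searched as GAANNTTC or TTCNNGAA. Each of these 2 words is its own reverse complement, so both strands are covered.
Hspe1: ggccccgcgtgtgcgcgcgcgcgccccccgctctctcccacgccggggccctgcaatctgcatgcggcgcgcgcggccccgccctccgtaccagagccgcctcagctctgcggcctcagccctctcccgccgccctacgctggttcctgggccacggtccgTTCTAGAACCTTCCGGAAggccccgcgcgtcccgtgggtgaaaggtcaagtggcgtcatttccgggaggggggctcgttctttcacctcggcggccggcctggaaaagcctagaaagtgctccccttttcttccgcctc
The 3 matches overlap each other and begin 89, 84 and 79 bases before the start of Hspe1. The window of the other Hspd1 transcript, which starts at 55088243, shares 4 bases with the window shown and holds 0 matches.

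Hspd1 was at 1355, 1032, 1775, 1085 and 1342 in MYC_HCC and 1436, 1123, 1399.8, 1403 and 2209 in MYC_Twist1_HCC. It was at 654, 597 and 1006 in MYC_OFF, 985, 636 and 726 in MYC_Twist1_OFF and 678, 599 and 73.6 in MYC_Recur. All OFF and Recur libraries lay below all libraries of the HCC groups, yet neither OFF difference was called (-0.82, SE 0.51, adjusted p = 0.172 and -0.94, SE 0.51, adjusted p = 0.135). MYC_Recur was called lower than MYC_HCC (log2 fold change -2.05, SE 0.51, adjusted p = 0.0138), and this rested on MYC_Recur 3: without it the log2 fold change was -1.02 (adjusted p = 0.058). Hspe1 was at 827, 696, 946, 602 and 826 in MYC_HCC, 799, 721, 832, 668 and 655 in MYC_Twist1_HCC, 445, 1012 and 1756 in MYC_OFF, 998, 1082 and 973 in MYC_Twist1_OFF and 672, 848 and 1057 in MYC_Recur. It was called in no comparison (0.13, SE 0.32, adjusted p = 0.84 in MYC_Recur against MYC_HCC), and in MYC_Recur 3 it stood at the top of its group while Hspd1 stood at the bottom. Hspe1 over Hspd1, a ratio chosen after the values were seen, was 0.533 to 0.674 in MYC_HCC, 0.296 to 0.642 in MYC_Twist1_HCC, 0.681 to 1.75 in MYC_OFF, 1.01 to 1.70 in MYC_Twist1_OFF, and 0.991, 1.42 and 14.4 in MYC_Recur.

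Of the 5 HSPB genes, Hspb7 (chromosome 4, 141420779 to 141425311), a small heat shock protein known from heart and skeletal muscle, had the largest rise of any member. It was at 0.16, 0.29, 0, 0.22 and 0.20 in MYC_HCC and 154, 24.3, 7.0, 9.47 and 1.19 in MYC_Twist1_HCC. It was at 29.6, 17.0 and 38.0 in MYC_OFF, 21.2, 641 and 58.1 in MYC_Twist1_OFF and 28.6, 1.08 and 34.5 in MYC_Recur. Every library outside MYC_HCC lay above every MYC_HCC library. Hspb7 was higher in MYC_OFF than in MYC_HCC (log2 fold change 4.57, SE 1.15, adjusted p = 0.00252) and in MYC_Twist1_HCC than in MYC_HCC (3.67, SE 0.997, adjusted p = 0.0363). The second call was lost without any 1 of the 5 MYC_HCC libraries, without MYC_Twist1_HCC 1 or without MYC_Twist1_HCC 2 (log2 fold changes 2.82 to 3.70). The summed level of 5 striated muscle markers was 3.06 to 6.01 in MYC_HCC, 3.20 to 4.55 in MYC_Twist1_HCC, 3.20 to 8.44 in MYC_OFF, 3.75 to 5.50 in MYC_Twist1_OFF and 5.70 to 65.4 in MYC_Recur, with 2 of the 5 at 0 throughout in each HCC group and in MYC_Twist1_OFF, 1 in MYC_OFF and 3 in MYC_Recur. Des alone carried the highest MYC_Recur sum, at 60.6, while Acta1, Myh4 and Tnnt3 were at 0 in all MYC_Recur libraries. The part of such cells in the Hspb7 values was not tested.

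Hspb1 (HSP27) was at 17.9, 17.3, 16.8, 4.19 and 34.2 in MYC_HCC, 17.4, 16.0, 14.9, 13.8 and 9.23 in MYC_Twist1_HCC, 20.6, 6.51 and 8.89 in MYC_OFF, 13.8, 10.2 and 7.58 in MYC_Twist1_OFF and 20.1, 36.4 and 9.45 in MYC_Recur. Its groups overlapped, and it was called in no comparison (-0.47, SE 0.49, adjusted p = 0.425 in MYC_OFF). Hspb11, which despite its name is a subunit of the intraflagellar transport machinery, was lower in MYC_OFF (-1.28, SE 0.28, adjusted p = 0.000836), with values from 2.61 to 3.07 against 6.50 to 18.1 in MYC_HCC. Hspb6 and Hspb8 were called in no comparison. Hspb8 ranged from 0.29 to 3.04 in 18 libraries and stood at 19.99 in MYC_HCC 4.

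J-domain proteins were the largest family, with 20 of 40 lower and 7 higher in MYC_OFF, 19 lower and 2 higher in MYC_Twist1_OFF, and 22 higher and 5 lower in MYC_Recur against MYC_OFF. Over all genes the shares were 39.4% lower and 18.9% higher, 33.5% and 13.1%, and 37.5% higher and 12.0% lower, in that order. Under median of ratios these counts were 13 and 11, 12 and 7, and 12 and 8. Over all genes, 26.7% were then lower in MYC_OFF, and the share higher is given above with the scaling. In MYC_Twist1_OFF 20.9% were lower and 21.6% higher, and in MYC_Recur against MYC_OFF 20.8% were higher and 22.5% lower. In the cytosol, Dnaja2 and Dnaja1, a pair of related partners of HSP70, moved in opposite directions. Dnaja2 (chromosome 8, 85537633 to 85555344) was at 123, 134, 154, 81.7 and 117 in MYC_HCC and 111, 110.0, 128, 117 and 74.9 in MYC_Twist1_HCC. It was at 36.2, 15.5 and 21.6 in MYC_OFF, 18.1, 19.1 and 18.4 in MYC_Twist1_OFF and 91.5, 81.4 and 145 in MYC_Recur. Its OFF libraries were below all others, with log2 fold changes of -2.32 (SE 0.27, adjusted p = 1.28e-06) in MYC_OFF, -2.46 (SE 0.27, adjusted p = 2.35e-06) in MYC_Twist1_OFF and 2.11 (SE 0.30, adjusted p = 1.97e-05) in MYC_Recur against MYC_OFF.

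Dnaja1 (chromosome 4, 40722150 to 40737149) was at 70.5, 44.1, 57.1, 59.5 and 85.7 in MYC_HCC and 151, 142, 98.4, 94.7 and 164 in MYC_Twist1_HCC. It was at 99.6, 168 and 182 in MYC_OFF, 129, 202 and 234 in MYC_Twist1_OFF and 65.5, 61.5 and 34.0 in MYC_Recur. All libraries of MYC_Twist1_HCC and the OFF groups lay above all of MYC_HCC and MYC_Recur. Dnaja1 was higher in MYC_OFF than in MYC_HCC (1.22, SE 0.29, adjusted p = 0.00179) and lower in MYC_Recur against MYC_OFF (-1.47, SE 0.33, adjusted p = 0.00122). The call in MYC_Twist1_HCC against MYC_HCC (1.02, SE 0.25, adjusted p = 0.0235) was lost without MYC_HCC 2 (0.90) or MYC_Twist1_HCC 1, 2 or 5 (0.96, 0.98 and 0.93). MYC_Twist1_OFF against MYC_Twist1_HCC was not called (0.52, SE 0.29, adjusted p = 0.153).

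Other J proteins of the cytosol and nucleus included Dnajb1 (HSP40), the partner induced with HSP70 on heat shock. It was at 12.1, 9.90, 12.5, 10.4 and 17.9 in MYC_HCC, 10.6, 9.95, 13.2, 11.67 and 9.73 in MYC_Twist1_HCC, 9.01, 9.43 and 11.2 in MYC_OFF, 10.5, 10.2 and 13.2 in MYC_Twist1_OFF and 9.55, 9.64 and 15.4 in MYC_Recur, with overlap throughout and no call (-0.30, SE 0.21, adjusted p = 0.226 in MYC_OFF). Dnajc9, a histone chaperone that also binds HSP70, was at 63.5, 56.7, 58.0, 43.7 and 70.1 in MYC_HCC, 52.1, 67.1, 67.7, 81.6 and 67.5 in MYC_Twist1_HCC, 6.98, 12.0 and 17.2 in MYC_OFF, 7.32, 9.97 and 28.8 in MYC_Twist1_OFF and 66.6, 36.2 and 41.1 in MYC_Recur. The 6 OFF libraries lay below all others, with log2 fold changes of -2.25 and -2.27 (adjusted p = 2.51e-05 and 4.75e-05), and 1.94 in MYC_Recur against MYC_OFF (adjusted p = 0.000445). Dnajb6 and Dnajb2, which hold back aggregation of misfolded proteins, were lower in both OFF groups (Dnajb6 -1.66 and -1.19, Dnajb2 -1.70 and -1.46) and higher in MYC_Recur than in MYC_OFF (1.62 and 1.58).

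Dnajc21, which acts in maturation of the large ribosomal subunit, went the other way. It was at 44.1, 41.4, 51.6, 35.4 and 53.7 in MYC_HCC, 139.7, 122, 64.4, 48.0 and 59.6 in MYC_Twist1_HCC, 265, 90.6 and 196 in MYC_OFF, 259, 377 and 208 in MYC_Twist1_OFF and 95.8, 80.4 and 56.7 in MYC_Recur. The OFF libraries lay above those of their HCC groups with no overlap, at 1.88 (SE 0.36, adjusted p = 0.000264) and 1.77 (SE 0.36, adjusted p = 0.000737). Its lower level in MYC_Recur against MYC_OFF (-1.13, SE 0.41, adjusted p = 0.0271) was lost without MYC_OFF 1, MYC_OFF 3 or MYC_Recur 3 (-0.81, -1.02 and -0.93). MYC_Recur values were all above those of MYC_HCC, with a difference that was not called (0.75, SE 0.36, adjusted p = 0.209). Dnajc17, a factor of pre-mRNA splicing, was at 14.0, 14.5, 13.8, 11.1 and 16.6 in MYC_HCC, 10.7, 10.4, 8.90, 9.06 and 7.33 in MYC_Twist1_HCC, 10.2, 9.57 and 8.57 in MYC_OFF, 7.43, 6.39 and 7.21 in MYC_Twist1_OFF and 11.6, 7.50 and 11.5 in MYC_Recur. Its call in MYC_Twist1_HCC against MYC_HCC (-0.54, SE 0.16, adjusted p = 0.049) held only without MYC_HCC 4, MYC_OFF 1, MYC_Recur 2 or MYC_Recur 3, and was lost without any other single library (-0.59 to -0.47). That in MYC_OFF (-0.51, SE 0.18, adjusted p = 0.024) was lost without MYC_HCC 5, MYC_OFF 2 or MYC_OFF 3 (-0.45, -0.52 and -0.45) and came to 0.01 under median of ratios.

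In the mitochondrion, Dnajc15 (chromosome 14, 77820681 to 77875125), a J protein of the inner membrane, fell most among J proteins in MYC_OFF. It was at 90.3, 82.8, 60.8, 106 and 79.0 in MYC_HCC and 52.1, 42.9, 43.0, 81.1 and 34.9 in MYC_Twist1_HCC. It was at 16.8, 6.97 and 8.65 in MYC_OFF, 11.8, 17.9 and 11.9 in MYC_Twist1_OFF and 73.3, 64.1 and 94.1 in MYC_Recur. All others were above the OFF libraries, with log2 fold changes of -2.91 (SE 0.28, adjusted p = 3.03e-07), -1.76 (SE 0.28, adjusted p = 8.91e-05) and 2.80 (SE 0.32, adjusted p = 3.17e-06). Dnajc19, its relative at the import motor of the same membrane, was called in no comparison (0.08, SE 0.25, adjusted p = 0.802 in MYC_OFF), with a range of 98.0 to 238 over all libraries. Dnaja3, of the matrix, was lower in MYC_Twist1_OFF (-1.16, SE 0.30, adjusted p = 0.00422) and higher in MYC_Recur against MYC_OFF (1.40, SE 0.33, adjusted p = 0.00209), and median of ratios ended both calls. Dnajc11, linked to the cristae, was lower in both OFF groups (-1.02 and -0.92, adjusted p = 0.00029 and 0.0011).

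Among J proteins of the endoplasmic reticulum, Dnajb11 (ERdj3), a BiP partner that binds unfolded chains, was at 11.9 to 17.8 in MYC_OFF and 6.31 to 14.7 in MYC_Twist1_OFF, and at 27.0 to 77.2 in all other libraries. Its log2 fold changes were -2.08 and -2.04 in the OFF groups and 2.13 in MYC_Recur against MYC_OFF (adjusted p = 4.21e-06, 1.4e-05 and 1.93e-05). Dnajb9 (ERdj4), which keeps the stress sensor Ire1 in check, was at 14.7, 17.1, 11.9, 26.8 and 17.9 in MYC_HCC, 11.6, 18.0, 10.8, 12.7 and 10.9 in MYC_Twist1_HCC, 3.52, 4.16 and 5.21 in MYC_OFF, 4.17, 7.93 and 6.27 in MYC_Twist1_OFF and 5.12, 7.75 and 4.66 in MYC_Recur. It was not called between MYC_Recur and MYC_OFF (0.35, SE 0.29, adjusted p = 0.318), and MYC_Recur was below MYC_HCC with no overlap (log2 fold change -1.43, SE 0.26, adjusted p = 0.00181). Of the 4 calls between these groups, this one held under every alternative in which it was tested. Dnajc3, a cochaperone that also holds back the kinase of the stress response, and Dnajb12, of the membrane, were called lower in MYC_OFF (-1.03 and -1.25), and median of ratios ended both calls. Dnajb14, the relative of Dnajb12, was higher (1.05, SE 0.29, adjusted p = 0.00512), a call lost without MYC_OFF 1 (0.67). Dnajc10 and Dnajc1 were not called in either OFF comparison.

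The 2 members called higher in MYC_Recur than in MYC_HCC were low. Dnajc18 was at 4.07, 4.66, 4.79, 4.16 and 3.26 in MYC_HCC, 5.31, 6.32, 3.40, 5.08 and 3.85 in MYC_Twist1_HCC, 6.43, 2.57 and 4.36 in MYC_OFF, 3.95, 3.36 and 3.73 in MYC_Twist1_OFF and 7.24, 6.95 and 11 in MYC_Recur (0.84, SE 0.24, adjusted p = 0.0306), and the call was lost without MYC_HCC 1 (0.83), MYC_HCC 5 (0.77) or MYC_Recur 3 (0.65). Dnajc27 was at 1.32, 1.56, 1.55, 0.30 and 1.07 in MYC_HCC, 3.01, 2.34, 1.68, 1.46 and 2.68 in MYC_Twist1_HCC, 7.96, 2.0 and 2.47 in MYC_OFF, 4.54, 3.58 and 3.46 in MYC_Twist1_OFF and 5.16, 2.50 and 2.73 in MYC_Recur (1.04, SE 0.33, adjusted p = 0.0496), and its call held only without 1 of the 3 MYC_OFF libraries and was lost without any other single library (0.78 to 1.19). In both genes the MYC_Recur libraries lay above all MYC_HCC libraries.

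**Figure D5:**
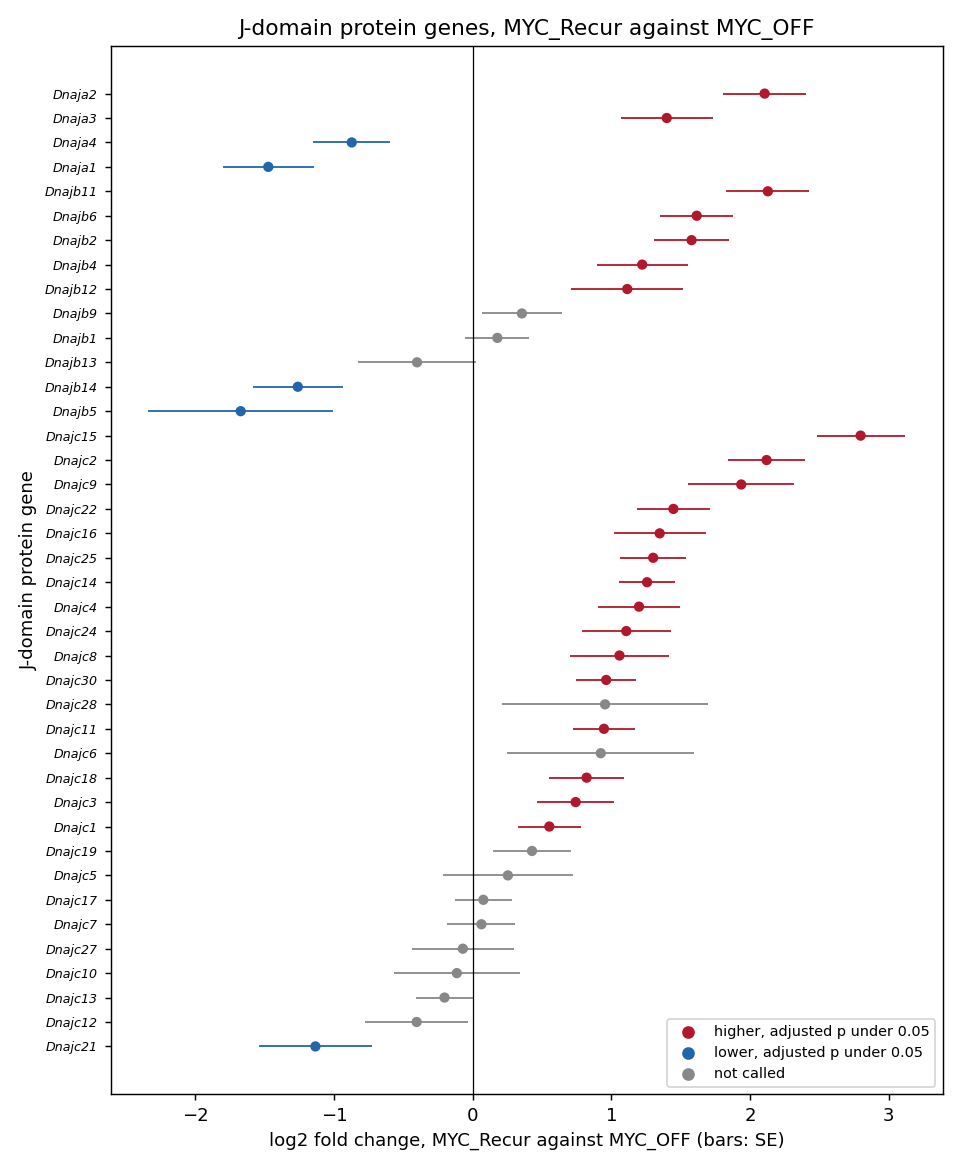
Log2 fold change of the 40 J-domain protein genes in MYC_Recur against MYC_OFF, 1 row per gene, with bars for the standard error of the limma fit; red marks genes called higher, blue genes called lower and grey the rest. Dnajc15 lies at 2.80 and Dnaja1 at -1.47, with 22 genes called higher and 5 lower.

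RefSeq promoter windows were matched for 56 of the 69 members, and 16 of these genes, or 18 of their 75 windows (24%), held at least 1 GAANNTTC or TTCNNGAA, as did 15.1% of all 32851 windows. Of the 16, 4 were called higher and 3 lower in MYC_OFF and 9 were not called, where 18.9% of all genes were higher and 39.4% lower. In MYC_Twist1_OFF 0 were higher, 3 lower and 13 not called, where 13.1% and 33.5% of all genes were higher and lower. Of the 40 matched members without a match, 7 were higher and 21 lower in MYC_OFF, and 4 higher and 19 lower in MYC_Twist1_OFF. A match is a description of letters and not of binding. Only members with a match are shown, so these windows do not stand for all heat shock genes. The windows of Dnajb1 hold 0 matches, and no window was matched for Hsp90aa1. The windows below, from GRCm38.p6, are those of 4 members with textbook or annotated ties to the heat shock response whose levels differed (Hspa1b and Dnaja1, higher in MYC_OFF) or were not called (Hsph1 and Hspb1), with matches in capitals. They lie at chr17:34959189-34959488 (minus strand), chr4:40722218-40722517 (plus), chr5:149636266-149636565 (minus) and chr5:135887669-135887968 (plus), in that order.
Hspa1b: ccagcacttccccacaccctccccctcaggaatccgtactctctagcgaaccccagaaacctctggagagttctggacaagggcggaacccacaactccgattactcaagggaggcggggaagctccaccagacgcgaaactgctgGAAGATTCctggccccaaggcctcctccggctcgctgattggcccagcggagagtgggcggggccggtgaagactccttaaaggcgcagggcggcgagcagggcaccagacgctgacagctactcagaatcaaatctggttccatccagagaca
Dnaja1: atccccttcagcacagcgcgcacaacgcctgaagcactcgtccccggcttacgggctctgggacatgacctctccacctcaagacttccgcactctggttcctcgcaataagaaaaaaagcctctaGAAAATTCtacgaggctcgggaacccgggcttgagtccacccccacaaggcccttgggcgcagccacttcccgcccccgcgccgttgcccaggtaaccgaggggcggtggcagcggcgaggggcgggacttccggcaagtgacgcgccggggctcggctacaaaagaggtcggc
Hsph1: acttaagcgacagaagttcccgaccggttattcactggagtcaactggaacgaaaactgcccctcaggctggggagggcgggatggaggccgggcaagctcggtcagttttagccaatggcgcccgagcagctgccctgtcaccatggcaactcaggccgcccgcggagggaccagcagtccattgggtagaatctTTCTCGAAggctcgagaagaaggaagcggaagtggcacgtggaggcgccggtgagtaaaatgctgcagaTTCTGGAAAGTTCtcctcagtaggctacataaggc
Hspb1: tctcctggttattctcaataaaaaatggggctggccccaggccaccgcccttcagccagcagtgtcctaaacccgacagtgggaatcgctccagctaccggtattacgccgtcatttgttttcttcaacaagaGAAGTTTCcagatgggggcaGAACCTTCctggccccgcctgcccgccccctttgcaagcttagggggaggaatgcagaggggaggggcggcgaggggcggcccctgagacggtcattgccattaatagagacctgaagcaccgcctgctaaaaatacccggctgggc
Hspa1b and Dnaja1 hold 1 match each, 104 and 124 bases before the start, and Hspb1 holds 2, at 117 and 97 bases before it. Hsph1 holds 3, at 54, -15 and -20 bases before the start, so the last 2 lie after it. Where a gene has several windows, the first with a match is shown, and the other Dnaja1 windows hold 0 matches.

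The counts for genes that work with these chaperones are read against the same shares of all genes: 39.4% lower and 18.9% higher in MYC_OFF, 33.5% and 13.1% in MYC_Twist1_OFF, and 37.5% higher and 12.0% lower in MYC_Recur against MYC_OFF. Of 29 heat shock factors and cochaperones of HSP70 and HSP90, 21 were lower in MYC_OFF and 17 in MYC_Twist1_OFF, 20 were higher in MYC_Recur than in MYC_OFF, and 0 moved the opposite way. Their median in MYC_OFF was -1.02, against -0.38 over all genes, and under median of ratios 12 were lower and 2 higher. Counts under that scaling are read against its own shares of all genes, 26.7% lower in MYC_OFF, with the share higher given above. Hsf1 was at 30.0, 37.4, 27.3, 19.3 and 31.4 in MYC_HCC, 25.2, 38.5, 23.4, 29.4 and 24.2 in MYC_Twist1_HCC, 16.8, 10.2 and 7.35 in MYC_OFF, 10.8, 11.9 and 16.0 in MYC_Twist1_OFF and 26.9, 23.6 and 22.3 in MYC_Recur. Both OFF groups were below all others, at -1.31 (SE 0.25, adjusted p = 0.000227) and -1.07 (SE 0.25, adjusted p = 0.00209). Ahsa1, which stimulates the ATPase of HSP90, fell by 3.54 on the log2 scale (adjusted p = 7.74e-08), with a mean of 228 in MYC_HCC, 19.4 in MYC_OFF and 130 in MYC_Recur. Ppp5c, a phosphatase bound to HSP90, fell by 2.38 (adjusted p = 1.39e-06) and Hsf2 by 1.69 (adjusted p = 1.78e-06).

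Of 13 tested prefoldin and TRiC helper genes, which hand clients to TRiC or regulate it, 10 were lower in MYC_OFF, 7 lower in MYC_Twist1_OFF and 6 higher in MYC_Recur than in MYC_OFF, with 0 the opposite way. Under median of ratios the first count was 7 lower and 2 higher, where 26.7% of all genes were lower. Pfdn2, a prefoldin subunit, fell by 2.28 (adjusted p = 1.69e-06) and Pdcl3, a phosducin-like cofactor of TRiC, by 3.17 (adjusted p = 2.98e-06). Of 29 genes of folding and stress response in the endoplasmic reticulum, 17 were lower in each OFF comparison, 2 were higher in MYC_OFF (Uggt1 and Derl3), and 18 were higher in MYC_Recur than in MYC_OFF. Calr, the lectin chaperone calreticulin, fell by 2.93 (adjusted p = 2.53e-07), and its partner Pdia3 by 1.89 (adjusted p = 6.39e-07). Under median of ratios the endoplasmic reticulum counts were 13 lower and 5 higher in MYC_OFF and 6 lower and 3 higher in MYC_Twist1_OFF. In the second comparison 20.9% of all genes were then lower and 21.6% higher.

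Of 14 genes of folding and proteolysis in the mitochondrion, 11 were lower and 3 higher in MYC_OFF, 7 lower in MYC_Twist1_OFF, and 7 higher and 1 lower in MYC_Recur against MYC_OFF. Trap1, the mitochondrial HSP90, fell by 2.45 (adjusted p = 4.31e-07) and was also lower in MYC_Twist1_HCC than in MYC_HCC (-0.77, SE 0.22, adjusted p = 0.0409). Spg7, a subunit of an inner membrane protease, fell by 3.89 (adjusted p = 2.53e-07). The 3 that were higher were the proteases Htra2 (1.96) and Lonp1 (0.67) and the disaggregase Clpb (0.62). Htra2 varied widely within MYC_OFF, with a mean of 335.7 and a standard deviation of 319.0. Under median of ratios the counts in MYC_OFF were 6 lower and 3 higher, where 26.7% of all genes were lower. In MYC_Recur against MYC_HCC, 0 of the 29 cochaperone genes were called by limma, where 6.90% of all genes were called higher and 3.93% lower. Of the 13 prefoldin and TRiC helper genes, 1 was lower (Pdcl, -1.40). Of the 29 endoplasmic reticulum genes, 1 was higher (Ero1lb, 3.60) and 2 were lower (Manf, -2.74, and Sil1, -1.44). Of the 14 mitochondrial genes, 0 were called.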

How the data were processed

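Liver tumor RNA was sequenced in 19 libraries, grouped by the group field of the labels. The values in the table the authors deposited are normalized signal per gene symbol, with 2 decimals. The tools listed are DESeq2, featureCounts, Picard, STAR and Trimmomatic, and the build is mm10, per the submitters' processing notes. Their versions, the formula of the values, the annotation and the use of strand are not given in the sources here. Reads per library are therefore unknown, and no counting interval could be given.

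Of 19511 rows, 25 had a bare number as symbol and were dropped, which left 19486, of which 162 were at 0 in every library. Genes with a value of at least 1 in at least 3 libraries (13253) entered the limma fit (limma 3.58.1, R 4.3.3) on log2(value + 1) with an intensity trend, 5 group means and 14 residual degrees of freedom, and with Benjamini-Hochberg adjustment over all of them; the script was tested on simulated data. A count model had been planned for count data, and limma was used because the values are normalized. Alternatives were no filter, a minimum of 5, a pseudocount of 0.1, 4 scalings (median of ratios, upper quartile, equal totals and trimmed mean of M values), the compared groups only, each library left out, MYC_HCC 4 and 5 left out, the replicate number as a block, and no trend.

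Values in every library are given for up to 3 of the largest called rises and falls per comparison whose groups did not overlap, for the TRiC genes, and for textbook members (Hspd1, Hspe1, Hspa1a, Hspa1b, Hspa5, Hspa8, Hspa9, Hsph1, the HSP90 genes, Hspb1 and Dnajb1), Hsf1 and Myc; up to 4 genes of each other list were taken by smallest p, and 1 gene so taken is not reported here. The members and lists were chosen with earlier results of these data known. Gene positions are from GENCODE vM21 on GRCm38, and promoter windows from RefSeq on GRCm38.p6.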

Additional observations from a re-analysis of the deposited data

Results flagged for a closer look

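In 17 of 138 sets of 5 values (69 members in MYC_HCC and in MYC_Twist1_HCC), the highest or lowest library lay farther from its nearest neighbor than 0.71 of the whole range. This was taken on the deposited values and not on their logs. For normally distributed values chance gives such a gap in about 1 in 20 sets. Whether these values are so distributed was not tested, so the 17 cannot be read as an excess over chance. MYC_HCC 4 was that library in 7 of them. Its values were 1133 for Hspa9, 206 for Cct2, 18.1 for Dnajc25, 18.1 for Hspb11, 19.99 for Hspb8, 3.11 for Hspa2 and 7.49 for Hspa1b, and of these only Cct2 was low. Dnajc6, which this rule did not flag, was also low, at 0.05 in MYC_HCC 4 against 10.48 to 14.95 in the other MYC_HCC libraries. MYC_HCC 3 was high in Dnajc7, at 80.4.

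In MYC_Twist1_HCC, library 5 stood apart in Hspd1 (2209) and Hsp90aa1 (5250.0), both high, and in Dnajc16 (1.78), which was low. Library 1 was high in Dnajc1 (12.9), Hspa12a (1.39) and Hspb7 (153.8), library 3 stood apart in Cct6a (646) and Hsph1 (125), both high, and library 2 in Dnajb9 (17.99), also high. The 1133 of Hspa9, an HSP70 of the matrix, was the top of its group. The MYC_HCC 4 values of the matrix chaperonin genes lay within the group for Hspd1 and at its lower end for Hspe1.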

How the results depend on the processing

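Of 127 member results with a call, 72 kept it under each of the 11 alternatives and 19 fits without 1 library that tested them, 36 lost it without at least 1 library and 48 under at least 1 other alternative. In 2 the sign changed: Dnajc17 in MYC_OFF against MYC_HCC came to 0.009 under median of ratios and 0.001 under upper quartile scaling, and Dnajc1 in MYC_Recur against MYC_OFF to -0.063 and -0.031.

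In MYC_OFF against MYC_HCC, the 12 higher became 7 of 62 tested with a minimum of 5, and the 32 lower became 21 under median of ratios and 21 under upper quartile scaling. Of all genes, 17.6% were called higher with that minimum, and 26.7% and 26.9% lower under those scalings. In MYC_Twist1_OFF against MYC_Twist1_HCC, the 5 higher became 2 with a minimum of 5, 12, 10 and 11 under median of ratios, trimmed mean and upper quartile scaling, and 8 with only the groups compared, and the 30 lower became 19 under median of ratios and 19 under upper quartile. Shares of all genes called higher were 12.2%, 21.6%, 18.6%, 21.7% and 16.3% in that order, and those called lower were 20.9% and 21%. In MYC_Recur against MYC_OFF, the 32 higher became 19, 21 and 19 and the 7 lower 13, 11 and 13 under the same 3 scalings, and the lower were 4 with only the groups compared. Over all genes, 20.8%, 24.6% and 21.4% were higher and 22.5%, 19.2% and 21.7% lower under the scalings, and 6.74% lower with only those groups. In MYC_Recur against MYC_HCC, the 2 higher became 1 with no filter, a minimum of 5, median of ratios or only the groups compared, and 0 with equal totals or without MYC_HCC 4 and 5, and the 2 lower became 1 with only the groups compared. Shares of all genes called higher were 4.84%, 7.03%, 5.3%, 6.04%, 4.93% and 3.77% in that order, and 3.43% were called lower. In MYC_Twist1_HCC against MYC_HCC, the 2 lower became 1 with a pseudocount of 0.1, upper quartile scaling or no trend, and 0 without MYC_HCC 4 and 5. Of all genes, 2.51%, 3.06%, 3.13% and 1.23% were called lower in that order. The cause of these shifts was not tested.

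Leaving out 1 library at a time gave 10 to 12 higher and 30 to 35 lower in MYC_OFF against MYC_HCC, 3 to 6 and 25 to 32 in MYC_Twist1_OFF against MYC_Twist1_HCC, 25 to 36 and 5 to 8 in MYC_Recur against MYC_OFF, 0 to 2 and 1 to 3 in MYC_Recur against MYC_HCC, 1 to 5 and 0 to 4 in MYC_Twist1_HCC against MYC_HCC, and 0 in MYC_Twist1_OFF against MYC_OFF and in the interaction. The shares of all genes called in these fits are not given here, so the ranges cannot be read as changes particular to the chaperones.

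Samples that share a replicate number were checked for pairing: their deviations correlated at -0.171 to 0.384, in no comparison all above 0.1, so the numbers were not taken to pair the samples. With the replicate number as a block, the 2 members lower in MYC_Twist1_HCC became 1 and the 2 higher in MYC_Recur against MYC_HCC became 0, and the other counts stayed within 1.5 times. Of all genes, 3.49% were called lower in the first of these comparisons and 4.37% higher in the second. With 3 or more numbers, samples correlated best with their own number for 2 of 5 in MYC_Twist1_HCC against MYC_HCC and for 0 to 2 of 3 in the other comparisons. The unknown depth limits what can be said of members at values near 1.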
